A study of Mus musculus with 30 samples.

Results

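The genes Nr1d1, Nr1d2, Rora and Rorb encode the REV-ERB (REV-ERBα and REV-ERBβ) and ROR (RORα and RORβ) nuclear receptors, and they were followed here in the hypothalamus of mice that carry a human form of Per3. Their members were chosen by gene name: every probe of the array, control spots left out, that was annotated to 1 of the 4 genes. The 4 genes, of 28146 gene names on the array, were read by 10 probes of 41174, namely 3 for Nr1d1, 1 for Nr1d2, 3 for Rora and 3 for Rorb, and all 10 were bright enough to be among the 29947 probes tested. RNA from 30 hypothalami, 1 mouse and 1 array each, was measured with 1-colour Agilent arrays in 2 runs. Run 1 held 7 Per3 5/5 and 7 WT mice, and run 2 held 8 Per3 4/4 and 8 WT mice, so each knock-in was compared with the WT mice of its own run. In the knock-ins, exon 18 of mouse Per3 was replaced by its human counterpart with 5 or 4 copies of the repeat that varies in length among people. Per3 5/5 and Per3 4/4 are the lines that the labels call Boxhill and Coach, both on a C57BL/6 background. The lines had been bred to homozygosity and freed of the Cre transgene used to make them, and the WT mice came from the same crosses. According to the methods all mice were adult males, and all had been moved from a daily light-dark cycle to cycles of 3.5 h of light and 3.5 h of dark and were sampled in light cycle 17. No other treatment or time point was given for these mice, so the arrays show 1 phase of that protocol.

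REV-ERB proteins are repressors and ROR proteins are activators, and both bind the same DNA element, the ROR response element (RORE). Through such elements they set the daily rhythm of Arntl, which encodes BMAL1, and of Clock, Npas2, Cry1 and Nfil3, and BMAL1 with CLOCK in turn drives Nr1d1 and Nr1d2 from E-boxes, which closes a loop of the circadian clock. REV-ERB proteins bind haem and recruit the NCoR and HDAC3 co-repressor complex. In the brain Rora and Rorb are strongly expressed in the thalamus, Rora also in Purkinje cells and Rorb in layer 4 of the cortex, and both are found in the suprachiasmatic nucleus, the hypothalamic pacemaker.

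The probe read most brightly for each gene was taken as its leading probe. The first 30 bases of these 4 probes are given here because every level below is the signal of 1 such sequence, and because their base composition differs. Capitals mark G and C, and the positions are those of the whole 60-base probe on mm9, as the file headers of run 1 give them.
Nr1d1 A_51_P223776, chr11:98630526-98631028, minus strand: GGCaCCtttGaGGtGCtGatGGtGCGCttt
Nr1d2 A_52_P303891, chr14:19037253-19037312, minus strand: CCaGaaCtGttaGtattGCttGtGatGCtt
Rora A_52_P652442, chr9:69226611-69226670, plus strand: GCaaGGtGtCtaCGttaaGaGCCCtatGtG
Rorb A_52_P662179, chr19:19011714-19011773, minus strand: ttGCtGttGttatatGttaCttttatGtta
G and C made up 53.3% of the whole Nr1d1 probe, 45.0% of the Rora probe and 35.0% of the Nr1d2 and Rorb probes, against a median of 41.7% over all probes tested. The Nr1d1 probe covered 503 bases of the chromosome for its 60, so it lay across a splice junction, and no exon annotation of that build was used to place the others within their genes. Probes of an array bind with different strength, so levels were compared between mice for 1 probe and not between genes.

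Levels are log2 signal after the 75th percentile of the array was subtracted, so a gene at 0 was as bright as that percentile. That percentile was 752 to 1546 intensity units on 27 arrays and lower on 3 arrays of run 2, at 347 on Per3 4/4 array 5, 633 on Per3 4/4 array 7 and 490 on WT array 15. These 3 dim arrays were kept, and the results that rest on them are given again without them. The runs themselves differed widely: 19386 of 29947 probes differed between the WT mice of run 1 and of run 2 (limma, adjusted p of at most 0.05). Run, scan and cohort of mice cannot be told apart, and no level was compared across runs to judge genotype.

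The dissected blocks were checked against lists of region markers. Of 15 hypothalamus markers 14 were tested and 12 were well above background on all 30 arrays, with the brightest probe, that of Hcrt, the orexin gene, at a mean log2 level of 5.46. Sim1 was well above background on 14 arrays, and Otp was not tested. The mean log2 level of the 14 markers lay between 0.41 and 2.05 on 28 arrays, at 0.13 on WT array 8 and at -1.39 on WT array 10. The block of WT array 10 thus went against its tissue label, and it also had the lowest thalamus marker level of all arrays, at -0.34, with the highest level of cortex and hippocampus markers among the WT mice of run 2, at -1.11. WT array 14 stood apart in its pituitary markers, at a mean of 5.15 where the other 29 arrays reached at most 0.15. All 10 thalamus markers were tested as well, and 9 of them were well above background on all 30 arrays, with the brightest probe, that of Zic1, at 4.47. For the thalamus markers the mean log2 level in run 1 was 1.98 ± 0.25 (SD) over the 7 Per3 5/5 mice and 1.86 ± 0.23 over their 7 controls. In run 2 it was 1.72 ± 0.82 (SD) over the 8 Per3 4/4 mice and 1.45 ± 1.06 over their 8 controls. The blocks of run 2 thus differed far more from each other in thalamus marker signal than those of run 1. The cortex and hippocampus and the choroid plexus markers had lower means in Per3 5/5 without passing the test. The anterior pituitary markers had a higher mean there, at -3.22 ± 0.88 (SD) against -3.64 ± 0.48 in the WT mice of run 1. The cortex and hippocampus markers, with the brightest probe, that of Nrgn, at 4.55, had a mean of -2.13 ± 0.41 (SD) in Per3 5/5 and -1.41 ± 0.67 in its WT mice, and all 10 were lower in Per3 5/5, with a median log2 fold change of -0.69. The choroid plexus markers, 9 of 10 tested and with the brightest probe, that of Clic6, at 1.90, had means of -2.64 ± 1.12 (SD) and -1.73 ± 0.44, with 9 of 9 lower and a median of -0.77. In Per3 4/4 8 of these 9 were higher, with a median of 0.99. The ranges of the cortex and hippocampus and of the choroid plexus list overlapped between the groups of run 1, and 0 of their probes passed the test (limma).

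Nr1d1, which encodes REV-ERBα, was read by its leading probe at a lowest log2 level of -1.70, a median of -0.90 and a highest of -0.65 in Per3 5/5, and at -1.29, -0.93 and -0.86 in the WT mice of run 1. In run 2 the same 3 values were -1.59, -0.18 and 1.42 in Per3 4/4 and -0.61, -0.26 and 2.04 in the WT mice. The groups overlapped in both runs, and the extremes of run 2 were the dim arrays: Per3 4/4 array 5 was the lowest, and Per3 4/4 array 7 and WT array 15 were the highest of their groups. The log2 fold change was 0.05 ± 0.33 (SE; 95% interval -0.63 to 0.73) in Per3 5/5 and -0.16 ± 0.31 (SE; interval -0.79 to 0.48) in Per3 4/4. Without WT array 15 alone the latter was 0.13 ± 0.26 (SE) and without Per3 4/4 array 5 alone 0.06 ± 0.29 (SE), and without all 3 dim arrays it was 0.13 ± 0.16 (SE), in each case the opposite sign and also not past the test (limma, adjusted p = 1.0). The WT mice of run 2 lay 1.09 ± 0.32 (SE) above those of run 1 (limma, adjusted p = 0.00433), so the order of group means, WT of run 2 at 0.06, Per3 4/4 at -0.10, Per3 5/5 at -0.97 and WT of run 1 at -1.03, followed the run. The other Nr1d1 probes did not pass this test, with A_52_P130952 at 0.19 ± 0.28 (SE; limma, adjusted p = 0.552) and A_52_P130961 at -0.35 ± 0.21 (SE; limma, adjusted p = 0.146). These probes correlated with the leading one at r = 0.86 and 0.46 over 30 arrays after group means were removed.

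Nr1d2, which encodes the paralog REV-ERBβ, had 1 probe and the smallest spread of the 10. Its log2 level had a lowest value of 1.21, a median of 1.35 and a highest of 1.44 in Per3 5/5, and of 1.05, 1.203 and 1.35 in the WT mice of run 1. In run 2 these values were 0.62, 1.18 and 1.69 in Per3 4/4 and 0.45, 0.96 and 1.60 in the WT mice. Group means were higher in each knock-in than in its WT mice, but the ranges overlapped in both runs. The log2 fold change was 0.13 ± 0.14 (SE; interval -0.16 to 0.41) in Per3 5/5 and 0.18 ± 0.13 (SE; interval -0.09 to 0.44) in Per3 4/4, where it was 0.10 ± 0.11 (SE) without the dim arrays. These errors pool the spread of both runs, and the within-group SD of Nr1d2 was 0.09 in run 1 and 0.34 in run 2. With the arrays of run 1 alone the Per3 5/5 value was 0.13 ± 0.07 (SE; interval -0.02 to 0.27; limma, unadjusted p = 0.0793, adjusted p = 0.469). All 7 knock-in mice lay above the WT median. Here the dim arrays of run 2 stood at the opposite ends: Per3 4/4 array 7 and WT array 15 were the lowest of their groups and Per3 4/4 array 5 the highest of its group.

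Rora, whose product activates RORE genes, was read by its leading probe at a lowest log2 level of 1.99, a median of 2.64 and a highest of 2.96 in Per3 5/5, and at 2.22, 2.59 and 3.00 in the WT mice of run 1. In run 2 the values were 0.89, 2.65 and 3.40 in Per3 4/4 and 0.56, 2.47 and 2.78 in the WT mice. The medians of the 4 groups were close together, whereas the lowest mice of run 2 lay far below every mouse of run 1. The within-group SD was 0.29 in run 1 and 0.89 in run 2, against medians of 0.25 and 0.38 over all probes tested, and 91.2% of probes varied less within groups. All 3 Rora probes showed this pattern and correlated with each other at r = 0.94 to 0.97. The log2 fold change was 0.01 ± 0.35 (SE; interval -0.71 to 0.72) in Per3 5/5 and 0.23 ± 0.33 (SE; interval -0.43 to 0.90) in Per3 4/4. Without the 3 dim arrays the Per3 4/4 value was 0.75 ± 0.30 (SE; interval 0.13 to 1.37; limma, unadjusted p = 0.0191, adjusted p = 1.0), which still did not pass. Without WT array 10, the block with little hypothalamus signal, it was 0.02. The dim arrays also differed in thalamus markers, which deviated from the group mean by -1.11 and -1.17 in Per3 4/4 arrays 5 and 7 and by 0.91 in WT array 15. Leaving them out thus also changed the balance of these markers between the groups, here and for Rorb below. The part of that balance in the values was not tested.

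Rorb, which encodes a ROR found almost only in the brain, retina and pineal gland, was read by its leading probe at a lowest log2 level of 0.46, a median of 0.92 and a highest of 1.12 in Per3 5/5, and at 0.45, 0.85 and 1.06 in the WT mice of run 1. In run 2 the values were -0.57, 0.29 and 0.79 in Per3 4/4 and -1.13, 0.04 and 0.79 in the WT mice. The medians of both groups of run 2 lay below those of run 1, although single mice of the runs overlapped. The knock-in and WT ranges overlapped within each run. All 3 Rorb probes were lower in the WT mice of run 2 than in those of run 1, by 0.83 to 0.91 on the log2 scale (limma, adjusted p of 0.00123 or less). The log2 fold change was -0.01 ± 0.22 (SE; interval -0.45 to 0.44) in Per3 5/5 and 0.27 ± 0.20 (SE; interval -0.15 to 0.69) in Per3 4/4, where it was 0.12 without WT array 10 and 0.46 ± 0.21 without the dim arrays (limma, unadjusted p = 0.0414, adjusted p = 1.0). Probe A_51_P388490 was the dimmest of the 10, well above background on 28 of 30 arrays, and tracked the other Rorb probes less closely, at r = 0.48 and 0.42, than these tracked each other at 0.89.

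**Figure D1:**
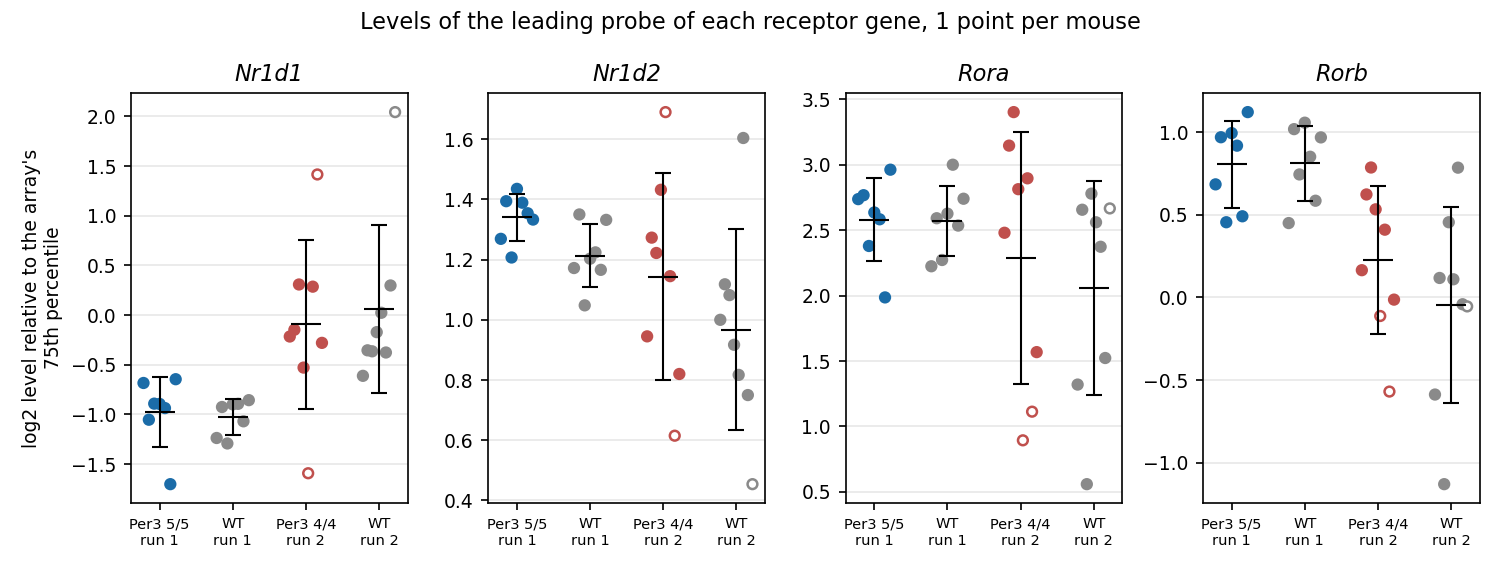
Log2 level of the leading probe of each gene in every mouse, by genotype and run, with the group mean and SD as black bars and the 3 dim arrays of run 2 as open circles. The groups of a run overlap for each of the 4 genes, and the points of run 2 spread more widely than those of run 1.

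None of the 10 probes passed the test in either knock-in. Across the array 0 of 29947 probes passed in Per3 5/5 (0%; limma, with 1849 probes or 6.17% at an unadjusted p of at most 0.05) and 4 in Per3 4/4 (0.0134%; 519 probes or 1.73% unadjusted), and of the 10 REV-ERB and ROR probes 0 reached an unadjusted p of 0.05 in this model of both runs. In Per3 5/5 their log2 fold changes ran from -0.24 to 0.13 with a median of 0.01, beside a median of -0.02 over all probes tested. In Per3 4/4 they ran from -0.17 to 0.27 with a median of 0.21, beside 0.01 over all probes. All Rora and Rorb probes were on the positive side in Per3 4/4 and all Nr1d1 probes on the negative side, except that all 3 Nr1d1 probes turned positive without the dim arrays, 2 of them also without WT array 15 alone or Per3 4/4 array 5 alone, 1 without Per3 4/4 array 4 and with base composition classes subtracted, 1 Rora probe turned negative without WT array 10, and 2 Rora probes with the thalamus markers in the model. Standard errors were as large as 0.38 in Per3 5/5 and 0.36 in Per3 4/4. With the arrays of each run fitted alone they were 0.07 to 0.24 in Per3 5/5, where Nr1d1 was at 0.05 ± 0.14 (SE) against 0.33 in the model of both runs, and 0.17 to 0.44 in Per3 4/4, and 0 of the 10 probes reached an unadjusted p of 0.05 (limma). The difference between the knock-in effects passed for 0 of 29947 probes (0%; limma, 892 or 2.98% unadjusted), and for the members it ran from -0.50 to 0.21 with a smallest unadjusted p of 0.106. In Per3 4/4 a change of 0.44 for Nr1d2 and of up to 0.95 for Rora still lies inside the 95% intervals, and of 0.53 and 1.15 with run 2 alone. In Per3 5/5 with run 1 alone the intervals of the 10 probes lay between -0.74 and 0.37.

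**Figure D2:**
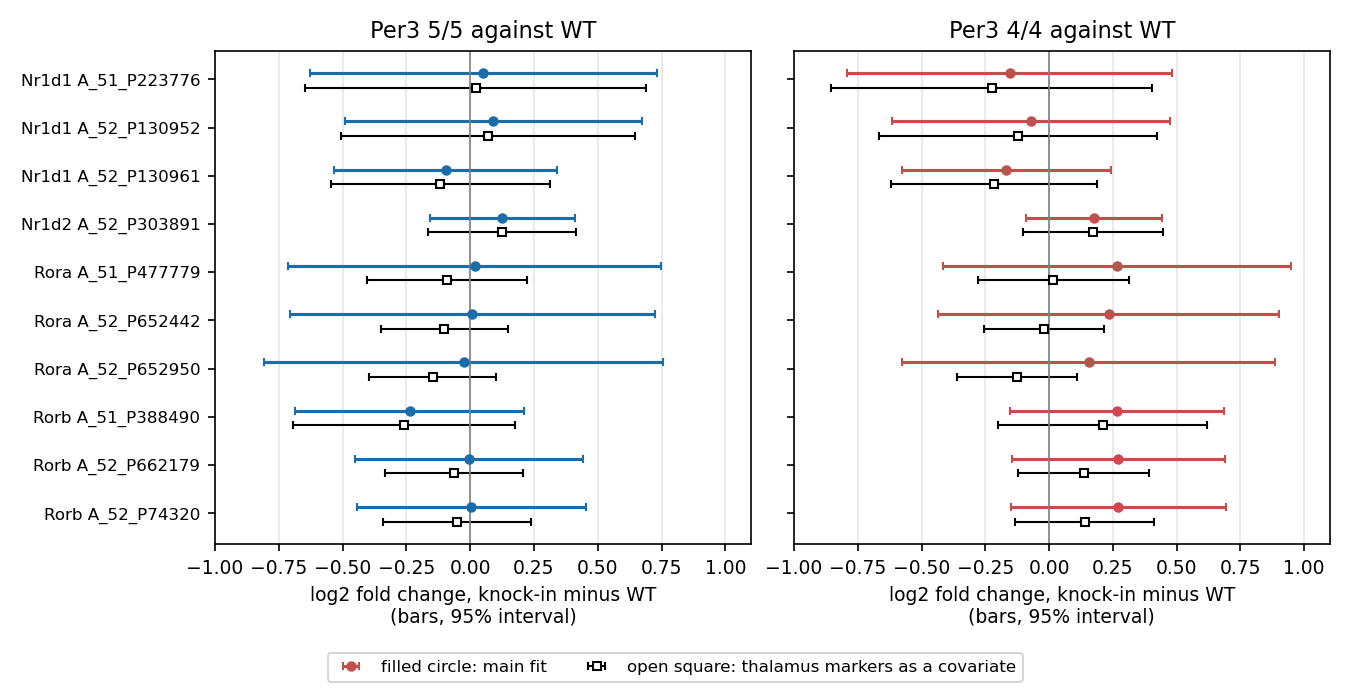
Log2 fold change of each of the 10 probes, knock-in minus WT of the same run, with its 95% interval, from the model of both runs with genotype within run (filled circles) and with the mean thalamus marker level added (open squares). Every interval holds 0, and the Rora and Rorb intervals shorten with the thalamus markers in the model, for Rora A_52_P652442 in Per3 4/4 from -0.43 to 0.90 to -0.25 to 0.22.

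Rora moved with the thalamus markers from block to block, and Rorb less clearly. With the mean of each group removed, the 16 blocks of run 2 fell into 10 with thalamus markers 0.32 to 0.91 above and 6 with markers 0.50 to 1.79 below their group mean on the log2 scale, with none between, while run 1 ran without such a gap from -0.53 to 0.27. Because of that gap, seen in the data, the relation is given within these sets. Rora correlated with the thalamus markers at r = 0.81 (Spearman's rho = 0.67, n = 14, permutation p = 0.00194, adjusted p = 0.0225) in run 1 and at r = 0.83 (rho = 0.79, n = 10, exact permutation p = 0.00375, adjusted p = 0.0225) in the upper set of run 2. In the lower set it was r = 0.89 (rho = 0.94, n = 6, exact permutation p = 0.111). With 6 arrays few permutations within groups exist, so not passing in that set says little. So Rora varied with these markers in the same direction in all 3 sets, past the test in the larger ones. Without the 2 arrays farthest from the median of the markers the values were 0.54, 0.80 and 0.91, so the size in run 1 rests in part on 2 arrays. Rorb followed them at r = 0.48 in run 1, 0.15 in the upper set and 0.93 in the lower set (n = 14, 10 and 6, permutation p of 0.0833 or more, exact in the sets of run 2), none of which passed after adjustment over 12 relations. Without the 2 farthest arrays these values were -0.07, 0.16 and 0.85, so the value and sign of Rorb in run 1 rest on 2 arrays. Over all 30 arrays, a value that also takes in the distance between the sets of run 2, r was 0.95 for Rora (rho = 0.95) and 0.83 for Rorb (rho = 0.70), and 0.96 and 0.70 without the 2 arrays farthest from the median (permutation, adjusted p of 0.00012 for each). The marker lists were chosen with earlier results of these data known, so these p values are no independent test. Plekhg1, of the thalamus list, is also among the probes closest to both genes.

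Single mice show how far the values went. In Per3 4/4 array 7 the deviation from the group mean was -1.17 for the thalamus markers, -1.18 for Rora and -0.80 for Rorb. In WT array 10 it was -1.79, -1.50 and -1.09, and in Per3 4/4 array 3, at the other end, 0.71, 1.11 and 0.56. In WT array 15, 1 of the 3 dim arrays, the genes parted: the markers stood at 0.91 and Rora at 0.61, but Rorb at -0.01. Of the 10 markers taken singly, all 10 correlated positively with Rora over the 30 arrays, from r = 0.17 for Calb2 to 0.94 for Plekhg1, and 9 with Rorb. The cortex and hippocampus markers ran the other way for Rorb (r = -0.58, rho = -0.57, n = 30, permutation p = 0.00363, adjusted p = 0.029 over 24 relations; -0.49 without the 2 arrays farthest from the median). No other list passed with any of the 4 genes, and the suprachiasmatic nucleus markers, 7 of 8 tested, correlated at r = 0.25 with Rora and 0.38 with Rorb (adjusted p of 0.476 or more), with -0.64 in run 1 and 0.48 in run 2 for Rora. Within run 1, as descriptions without a test, the anterior pituitary markers stood at -0.77 with Rora, -0.71 with Rorb and -0.72 with Nr1d1, against 0.05, 0.22 and 0.09 in run 2. Per3 5/5 array 6 had the highest pituitary marker level of run 1, at -1.51. It deviated from its group mean by -0.73 for Nr1d1, -0.59 for Rora and -0.53 for the thalamus markers. The run 1 values in this paragraph were not given again without that array. Nr1d1 stood at 0.74 with the thalamus markers in run 1 and 0.25 in run 2, and Nr1d2 at -0.73 and -0.20 with the cortex and hippocampus markers. The hypothalamus markers stood at 0.16 with Rora and 0.32 with Rorb, but at -0.68 and -0.55 without the 2 arrays farthest from the median, so those values rest on these arrays. In whole blocks, fewer cells of a type and less RNA per cell cannot be told apart.

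**Figure D3:**
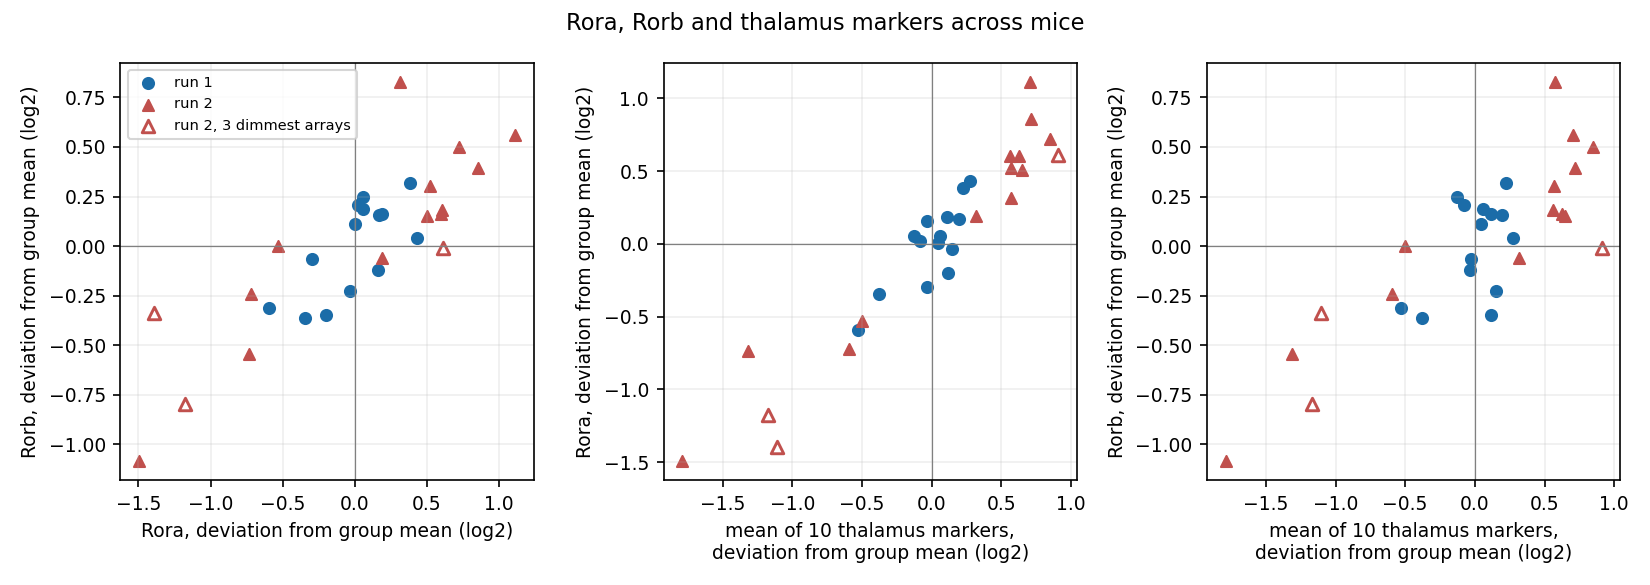
Rora and Rorb against the mean of 10 thalamus markers, each as the deviation in log2 from the mean of the mouse's genotype and run, with 1 point per mouse and the runs marked. Rora lies close to a line across both runs, and the run 2 points are split into a set above and a set below 0 on the marker axis.

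Rora and Rorb rose and fell together. After removal of group means their leading probes correlated at r = 0.83 (rho = 0.79, n = 30, permutation p = 1e-05, the smallest that 100000 permutations can give; adjusted p = 6e-05 over 6 pairs), at 0.71 in run 1 and 0.85 in run 2, and at 0.80 without the 2 arrays farthest from the median. Within the sets of run 2 the value was 0.33 (n = 10) and 0.79 (n = 6), and 0.75 and 0.36 without the 2 arrays farthest from the median of Rorb, neither past the test. In the set of 6 few permutations within groups exist, so not passing there says little. All 9 pairs of a Rora and a Rorb probe correlated positively, from 0.43 to 0.90. With the thalamus marker mean as a covariate the pair fell to r = 0.25 (permutation p = 0.195, adjusted p = 0.292). The same covariate reduced the standard error of the Rora fold change in Per3 4/4 from 0.33 to 0.12 and moved the value from 0.23 to -0.02, and it left Rorb at 0.14 ± 0.13 (SE).

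The REV-ERB genes ran in opposite directions, but on few arrays. Nr1d1 and Nr1d2 correlated at r = -0.70 over 30 arrays (rho = -0.41, permutation p = 0.00281, adjusted p = 0.00843), and Nr1d2 was negatively correlated with each of the 3 Nr1d1 probes, from -0.83 to -0.65. In run 1 the value was 0.16 (n = 14, permutation p = 0.566) and in run 2 -0.77 (n = 16, permutation p = 0.00196, adjusted p = 0.00588). Without the 3 dim arrays it was -0.20 (permutation p = 0.357), and without the 2 arrays farthest from the median of Nr1d1 -0.47 (adjusted p = 0.0726), so the relation rests on those arrays. WT array 15 deviated by 1.98 for Nr1d1 and -0.51 for Nr1d2, Per3 4/4 array 7 by 1.51 and -0.53, and Per3 4/4 array 5 by -1.50 and 0.55.

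The arrays of run 2 also differed in how probes of different base composition read. Probes were put into 10 classes of base composition. The mean over probes of the class richest in G and C (at least 55.0%) was set against that of the poorest class (at most 33.3%). Their difference, rich minus poor, deviated from its group mean by 0.57 in WT array 15, 0.43 in Per3 4/4 array 7 and -0.73 in Per3 4/4 array 5. It was not limited to the dim arrays, since WT array 13 stood at -0.74, WT array 10 at -0.41 and Per3 4/4 array 8 at 0.40. Nr1d1, with a G and C rich probe, correlated with this difference at r = 0.65 over 30 arrays, and Nr1d2, with a poor one, at -0.87, as descriptions without a test. In run 1 the values were 0.22 and -0.39. Rora stood at 0.20 over 30 arrays and 0.14 in run 1, and Rorb at -0.14 and -0.40. With the median of its base composition class subtracted from each probe, Nr1d1 and Nr1d2 correlated at -0.46 (adjusted p = 0.149), and the other Nr1d1 probes correlated with Nr1d2 at -0.72 (A_52_P130952) and -0.33 (A_52_P130961), while Rora and Rorb remained at 0.88. What part base composition plays in the REV-ERB relation was not tested beyond these values.

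**Figure D4:**
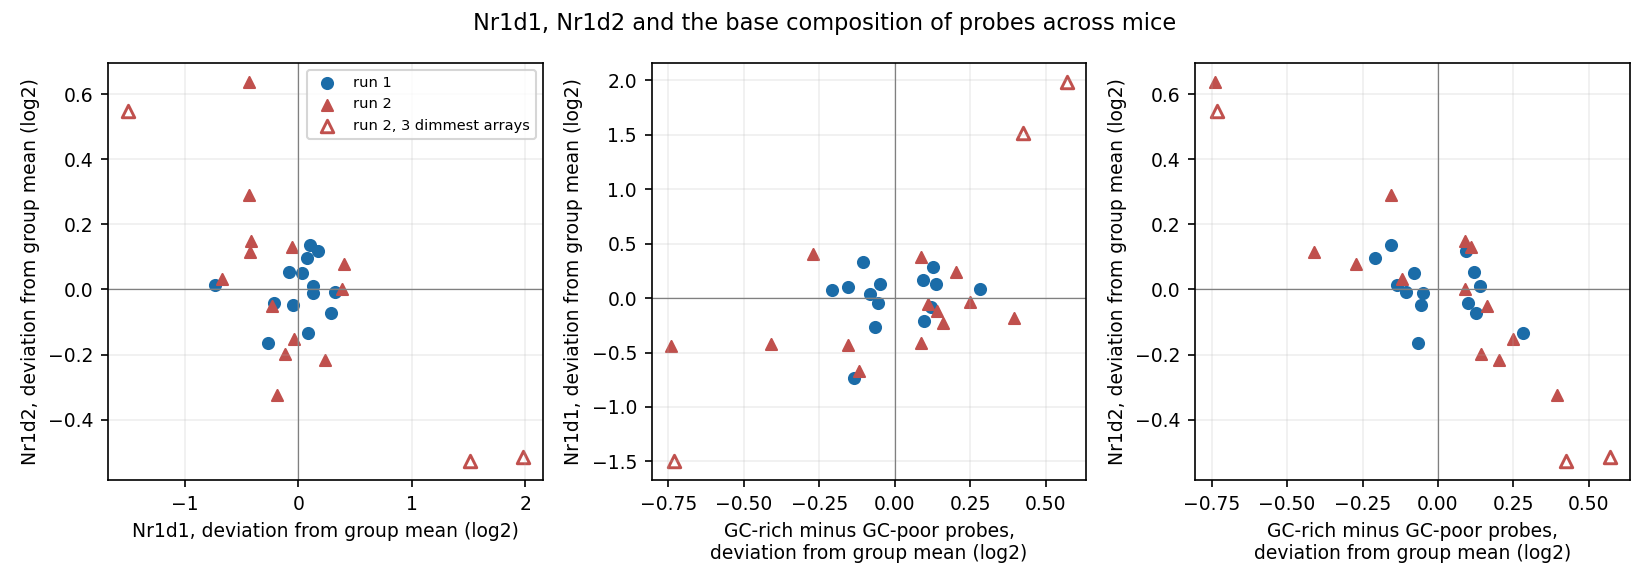
Nr1d1 against Nr1d2 (left), and each of them against the difference between G and C rich and poor probes (middle and right), all as deviations in log2 from the group mean, with 1 point per mouse and open triangles for the 3 dim arrays. The dim arrays are the extremes for Nr1d1, at 1.98 and -1.50, but WT array 13, which was not dim, has the highest Nr1d2 value, 0.64, and the lowest base composition difference, -0.74; run 1 spreads less, with its lowest Nr1d1 value at -0.73.

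Pathway genes were read as 53 tested genes in 7 lists. In the knock-in comparisons 0 of their probes passed the test in Per3 5/5 and 0 in Per3 4/4. At an unadjusted p of at most 0.05 stood 5 of the 53 genes in Per3 5/5 and 1 in Per3 4/4, beside 6.17% and 1.73% of all probes. Among the genes driven through ROREs, which included Arntl, Clock, Npas2, Cry1 and Nfil3, the smallest p stood for Nfil3, a repressor of D-box genes, at 0.21 ± 0.13 (SE) in Per3 5/5 and for Npas2, a partner of BMAL1, at -0.21 ± 0.14 (SE) in Per3 4/4. Of 10 genes driven through E-boxes and D-boxes, Per2 was at -0.26 ± 0.12 (SE; limma, unadjusted p = 0.0351, adjusted p = 0.796) in Per3 5/5. Per3 itself was at -0.23 ± 0.20 (SE) in Per3 5/5 and 0.23 ± 0.19 (SE) in Per3 4/4. Its probe reads the altered gene, and whether it lies in the replaced exon was not established.

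The partners of the receptors and the haem they bind gave similar values. Of 14 co-repressors and co-activators 12 were lower in Per3 5/5, with a median log2 fold change of -0.18 against -0.02 over all probes, beside 37 of all 53 listed genes and 54.5% of all probes on the lower side, and no test sets them apart. The smallest p values stood for Tbl1x, a subunit of the NCoR complex, at -0.27 ± 0.12 (SE; limma, unadjusted p = 0.0366, adjusted p = 0.796) and for Ncor1 itself at -0.29 ± 0.14 (SE). The cortex and hippocampus and the choroid plexus markers were lower in the same mice, among them Fezf2 at -0.75 ± 0.28, Neurod6 at -1.99 ± 0.96 and Tmem72 at -1.87 ± 0.80 (SE; limma, unadjusted p = 0.0114, 0.0468 and 0.0266, adjusted p = 0.796 for each), and their part in the values of the co-regulators was not tested. In Per3 4/4 9 of them were lower, beside 36 of the 53 and 48.3% of all probes, with a median of -0.04 and Ncor1 at -0.25 ± 0.14 (SE). Of 13 genes of haem synthesis and breakdown, Uros, uroporphyrinogen III synthase, had the smallest p of all listed genes, at 0.42 ± 0.14 (SE; limma, unadjusted p = 0.00458, adjusted p = 0.796) in Per3 5/5, with Blvra, a biliverdin reductase, at 0.16 ± 0.08 (SE). Hmox2, the constitutive haem oxygenase, was at -0.17 ± 0.07 (SE; limma, unadjusted p = 0.0251, adjusted p = 1.0) in Per3 4/4. Of the 6 tested genes that set the stability of REV-ERB proteins, Fbxw7, of a ubiquitin ligase, was at -0.24 ± 0.12 (SE) in Per3 5/5, and Gsk3a, a kinase, at -0.30 ± 0.29 (SE) in Per3 4/4. The thyroid hormone receptor genes Thra and Thrb, of which Thra overlaps Nr1d1 on the opposite strand and Thrb lies near Nr1d2, were at -0.20 ± 0.13 and -0.23 ± 0.09 (SE) in Per3 5/5, and Thrb at 0.15 ± 0.09 (SE) in Per3 4/4. Th, the dopamine synthesis enzyme, and Fabp7, a fatty acid binding protein of glia, which are known REV-ERB targets in the brain, were at 0.55 ± 0.35 and -0.02 ± 0.32 (SE) in Per3 5/5, and at -0.39 ± 0.33 and -0.42 ± 0.30 (SE) in Per3 4/4. No gene named in this paragraph passed after adjustment.

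From mouse to mouse, 40 of 212 pairs of a receptor gene and a listed gene passed after adjustment over the 212, namely 17 for Nr1d1, 17 for Nr1d2, 4 for Rora and 2 for Rorb. These counts stood near the background of the array for Nr1d2 and Rora and somewhat above it for Nr1d1. For Rorb they rest on 2 genes, 3.77% of the 53, beside 1.14% of all probes. An r as large in size as the smallest that passed was reached by 21, 23, 4 and 2 of the 53 listed genes, beside 30.6%, 44.9%, 7% and 1.14% of all probes. An r of at least 0.7 in size was reached by 6 (11.3%) with Nr1d1 and 6 (11.3%) with Nr1d2, beside 10.9% and 12.4% of all probes, and by 1 (1.89%) each with Rora and Rorb, beside 1% and 0.875%. The pairs below are thus values of single genes and not a result about the lists. Of the 40, 33 also passed with the same sign within run 2, 1 within run 1, 9 without the 3 dim arrays and 27 with the mean of each slide removed. Of 10 clock genes driven through E-boxes or D-boxes, 5 passed with Nr1d1. They were Per1 (r = 0.84), Bhlhe41 (0.78), Cry2 (0.70), Dbp (0.59) and Ciart (0.51), while Arntl, Clock, Npas2, Cry1 and Nfil3, driven through ROREs, did not pass (permutation, adjusted p of 0.0175 or less for the 5). Nr1d1 also passed with genes of other lists, 1 positively and 5 negatively of 13 haem genes and 3 positively and 2 negatively of 14 co-regulators. An r as large in size as that of the weakest pair that passed was reached by 5 of the 10 E-box and D-box genes. It was also reached by 6 of the 13 haem genes and 8 of the 14 co-regulators, beside 30.6% of all probes. No test set the E-box and D-box genes apart from the rest. Per1 and Cry2 encode repressors of CLOCK and BMAL1, as Bhlhe41 and Ciart do, and Dbp encodes an activator at D-boxes. The relation with Dbp, at 0.84 in run 1 (n = 14, permutation p = 0.00032, adjusted p = 0.0226) and 0.69 without the dim arrays (adjusted p = 0.0106), was the 1 pair of Nr1d1 that passed in both, but it was 0.06 with base composition classes subtracted. Per1 was at 0.50 in run 1 and 0.51 without the dim arrays, and Bhlhe41 at 0.63 and 0.55, and none of these passed.

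Over 30 arrays Nr1d2 ran the other way with Per1 (r = -0.63), Cry2 (-0.59) and Bhlhe41 (-0.66). In run 1 these 3 genes stood at -0.16, -0.47 and 0.55 with Nr1d2. Without the dim arrays they stood at -0.17, -0.20 and -0.37, and none passed. Nr1d2 ran together with Clock, which encodes the partner of BMAL1 (r = 0.84, rho = 0.70, n = 30, permutation p = 1e-05, adjusted p = 0.000707). The relation with Clock held without the dim arrays (0.77, adjusted p = 0.012) and stood at 0.72 with base composition classes subtracted, but at 0.23 in run 1. Rora and Rorb passed with Hlf, a D-box activator, at r = 0.72 and 0.77 (adjusted p = 0.00725 and 0.00121). These stood at 0.58 in run 1 and 0.73 in run 2 for Rora and at 0.40 and 0.82 for Rorb, and both passed again without the dim arrays. Rora also correlated with Nfil3 (-0.55) and Dbp (0.45). Nfil3 passed again without the dim arrays (-0.62), but not without the 2 arrays farthest from the median of Rora (-0.30, permutation, adjusted p = 0.263). Dbp passed again without those 2 arrays (0.44). It did not pass without the dim arrays (0.45) or with base composition classes subtracted (0.36, permutation, adjusted p = 0.0565 and 0.261). With the thalamus markers as a covariate Hlf fell to 0.15 with Rora (adjusted p = 0.702) and to 0.43 with Rorb (adjusted p = 0.102), and 0 of the 4 Rora pairs and 0 of the 2 Rorb pairs that had passed did so. Arntl, the best known RORE gene, stood with Rora at -0.58 in run 1 and 0.77 in run 2, and at 0.22 over all arrays (adjusted p = 0.348). None of the 4 receptor genes passed with Arntl.

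**Figure D5:**
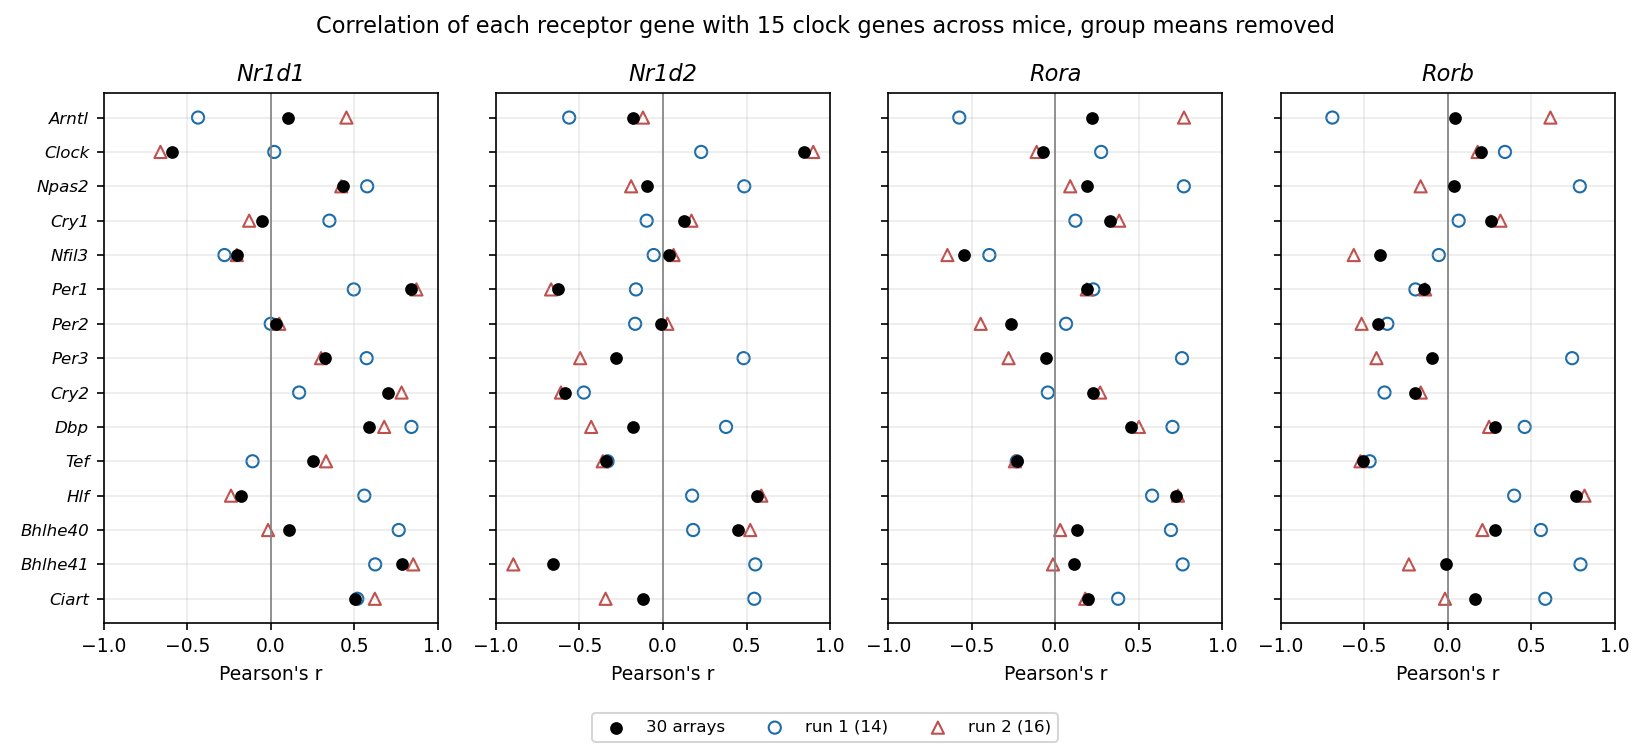
Pearson's r between each receptor gene and 15 clock genes, the first 5 driven through ROREs and the others through E-boxes or D-boxes, over all 30 arrays (filled circles), run 1 (open circles) and run 2 (triangles). For many pairs the runs lie apart, as for Arntl with Rora, at -0.58 in run 1 and 0.77 in run 2, while Per1 and Bhlhe41 lie on the positive side of Nr1d1 in both.

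Outside the clock, the REV-ERB genes passed with Gps2, a subunit of the NCoR complex, at r = 0.85 for Nr1d1 and -0.87 for Nr1d2, and with Gsk3a, at 0.80 and -0.76. Fech, the ferrochelatase that completes haem, stood at -0.76 with Nr1d1 and 0.85 with Nr1d2, and Urod, an earlier enzyme of haem synthesis, at -0.77 with Nr1d1. Crebbp, a histone acetyltransferase, stood at 0.82 with Nr1d2, and Alad, the enzyme of the second step of haem synthesis, at -0.70. All of these passed over 30 arrays (permutation, adjusted p of 0.00816 or less), but Alad turned to 0.13 with Nr1d2 when base composition classes were subtracted and was at -0.38 (permutation, adjusted p = 0.0913) with slide means removed. Crebbp was at 0.07 with Nr1d2 in run 1 and did not pass without the dim arrays (0.70, permutation, adjusted p = 0.0727). In run 1 Gps2, Gsk3a, Urod and Fech stood at -0.19, -0.23, 0.38 and 0.11 with Nr1d1, the opposite sign in each case. Without the dim arrays, Gps2 (-0.75) and Fech (0.68) passed with Nr1d2, while Gsk3a (-0.54) and Alad (-0.47) did not (permutation, adjusted p = 0.0734 and 0.149). With Nr1d1 none of these genes passed in that setting, at 0.33 for Gps2, 0.22 for Gsk3a, -0.23 for Urod and -0.28 for Fech (permutation, adjusted p of 0.468 or more). Hmox1, the inducible haem oxygenase, stood at -0.66 with Rora and -0.68 with Rorb (adjusted p = 0.0216 and 0.00721), but at 0.08 and 0.33 in run 1. Without the dim arrays Hmox1 stood at -0.59 with each and did not pass (permutation, adjusted p = 0.149 and 0.0565). Within run 1 the 3 pairs that passed were Dbp with Nr1d1, Ppargc1a, a co-activator of RORs, with Rora (r = 0.87, adjusted p = 0.017), and Ncoa2, another co-activator, with Rorb (0.80, adjusted p = 0.017). Over all 30 arrays Ppargc1a stood at -0.22 with Rora and Ncoa2 at 0.39 with Rorb, and neither passed (permutation, adjusted p = 0.622 and 0.318).

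All probes were ranked by the likeness of their pattern to that of each leading probe. The likeness is Pearson's r over 30 arrays with group means removed, given as a description. Closest to Rora stood Kcnc2, a potassium channel of fast-firing neurons (0.95; 0.94 in run 1), Plekhg1 (0.94), Mrvi1 (0.94), Grid2ip (0.94) and Tafa4 (0.93), and farthest Ctbp2 (-0.81), Tpbg (-0.78) and S100a10 (-0.78). Closest to Rorb stood Fzd10, a Wnt receptor (0.92), the Wnt-pathway transcription factors Lef1 (0.91) and Tcf7l2 (0.90), Col25a1 (0.90) and Plekhg1 (0.89), and farthest Baiap2 (-0.83), Ngef (-0.82) and Hs3st2 (-0.80). Lef1, Tcf7l2 and Plekhg1 belong to the thalamus list. In run 1 the Rorb values were 0.76 for Fzd10, 0.90 for Lef1 and 0.74 for Tcf7l2.

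Closest to Nr1d1 stood Usp2, a deubiquitinase with a clock-driven rhythm (0.94), Src (0.94), Lingo1 (0.93), Gm9109 (0.92) and Vamp2 (0.91), and farthest Mmachc (-0.92), Tle4 (-0.92) and Golph3l (-0.91). For Nr1d2 they were Naa50 (0.93), Tmem168 (0.92), Ankrd17 (0.91), Zmym1 (0.91) and Msl3 (0.91), and at the other end Dxo (-0.95), Gria1 (-0.93) and Alg3 (-0.93). With base composition classes subtracted Gria1 stood at -0.467 with Nr1d2, against -0.881 for Dxo and -0.875 for Alg3. In run 1 Usp2 stood at 0.65 with Nr1d1, Src at 0.44 and Vamp2 at 0.21, and Naa50 at 0.42 with Nr1d2. With base composition classes subtracted, the shares of probes at an r of at least 0.7 in size were 3.06%, 6.86%, 0.976% and 0.902%, against 10.9%, 12.4%, 1% and 0.875% before, so they became smaller for the REV-ERB genes and hardly moved for the ROR genes.

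The promoters were searched for the clock elements named above. The windows, from RefSeq (GRCm38.p6), held 250 bases before and 50 after each start, 5 windows for the 4 genes, with 2 for Rorb, and both strands were read. The canonical E-box CACGTG, found in 7.15% of 32851 promoters, had 0 matches in the 5 windows, as had the D-box TTATGTAA (0.938% of promoters) and the cAMP element TGACGTCA (1.79%). The E-box variant CACGTT (4.68%) had 1 match in Nr1d1 and 1 in Rorb, both read as AACGTG on the gene's strand, and the ROR core motif AGGTCA (16.3%) had 1 in Nr1d2. They are shown with the flanking bases, the match in capitals.
Nr1d1, chr11:98775388-98775417, minus strand: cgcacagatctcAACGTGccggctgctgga
Rorb, chr19:19001334-19001363, minus strand: agaatacacagcAACGTGattcatggggag
Nr1d2, chr14:18239166-18239195, minus strand: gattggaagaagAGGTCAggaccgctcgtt
A match describes letters in a short window, and none of these data measured binding there.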

How the data were processed

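The intensity values are those the authors deposited from Agilent Feature Extraction, which per the file headers had corrected each spot for background and spatial trend, with arrays not yet scaled to each other. The authors' log2 values, shifted to the 75th percentile according to the methods and found here to be centred on probe medians within a run, served as an alternative. Here log2 intensity minus the array's 75th percentile was averaged over spots of a probe, without control spots and without outlier spots (36 to 117 per array), and no spot was saturated. Testing was limited to probes for which, in some genotype, arrays with the scanner software's mark of a signal well above background were no fewer than arrays without it. Models were fitted to all 30 arrays and 29947 probes with limma 3.58.1 in R 4.3.3, with a mean for each genotype within run, two-sided tests and Benjamini-Hochberg adjustment at 0.05. Correlations used log2 levels minus group means, permuted within groups 100000 times, two-sided and adjusted over 6 pairs of members, 212 pairs with listed genes, 24 with marker lists and 12 within sets of arrays, and enumerated in full within the sets of run 2. A missing value of 1 marker probe was set to its group mean, and 130 probes with a missing value were left out of the likeness. The steps were tested on simulated data. The labels give 1 mouse per array, and 1 array in each genotype of run 1 had been left out by the authors. The members, lists, named-gene rule and tests were chosen with earlier results of these data known. The genes named were all member probes, per list the 2 with the smallest p in a comparison, the 6 largest correlations that passed and the 5 highest and 3 lowest in likeness. Dbp and Arntl pairs and clock genes beyond these, and single arrays, were named after their values were seen. RefSeq names were matched for 26918 of 27968 probe accessions. The rank product of the methods was not run. 1 gene of the pathway lists was kept in the tests and is not reported here.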

Additional observations from a re-analysis of the deposited data

Results flagged for a closer look

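Among 40 groups of 7 or 8 values (10 probes in 4 groups) 3 held a value far from the rest by Dixon's test, which flags about 1 group in 20 by chance. Nr1d1 probe A_51_P223776 read -1.70 on the log2 scale in Per3 5/5 array 6, the lowest of 7, where the other 6 mice lay between -1.05 and -0.65. The same mouse had the lowest Rora level of its group and the lowest thalamus marker level of run 1. The same Nr1d1 probe read 2.04 in WT array 15, the highest of 8, where the others lay between -0.61 and 0.30. This was 1 of the 3 dim arrays. Rorb probe A_52_P74320 read -3.95 in WT array 10, the lowest of 8, where the others lay between -2.94 and -2.10. This was the block with the lowest hypothalamus and thalamus marker levels. The part of brightness or of the tissue held in a block in these values was not tested.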

How the results depend on the processing

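Of 888 log2 fold changes of the 10 probes under alternative settings, 838 kept their sign and 0 passed the test, with a smallest adjusted p of 0.463. Many of these values could not change sign. By construction the fold change stays the same without an array of the other run, with another filter, in the fit of 1 run, in the methods' t-test and with the replicate block. The count of kept signs is thus no measure of stability. The settings with base composition classes subtracted, with the thalamus markers as a covariate and without the 3 dim arrays were chosen after seeing the data. The count of probes called in Per3 4/4, 4 in the text, was 0 with only the arrays of run 2 (225 unadjusted) and 0 by the methods' t-test (295 unadjusted), 9 with slide as a random block, 7 with normexp, 7 over probes above background on every array, 7 with outlier spots kept and 8 with base composition classes, and 2 to 8 with 1 array left out. It was 0 to 3 in Per3 5/5 and 0 to 2 for the difference with 1 array left out. In Per3 5/5 the sign turned with slide as a fixed block for Rora A_51_P477779 (-0.004), Rora A_52_P652442 (-0.007) and Rorb A_52_P74320 (-0.038; -0.014 as a random block), with the thalamus markers for the same probes (-0.092, -0.102 and -0.052), and with base composition classes for Rorb A_52_P662179 (0.012). In Per3 4/4 it turned without the dim arrays for Nr1d1 A_51_P223776 (0.126), A_52_P130952 (0.170) and A_52_P130961 (0.003), with base composition classes for A_52_P130952 (0.003), and with the thalamus markers for Rora A_52_P652442 (-0.019) and A_52_P652950 (-0.126). With 1 array left out the Per3 5/5 values ran from -0.002 to 0.174 for Nr1d1 A_51_P223776, -0.049 to 0.112 for Rora A_51_P477779, -0.055 to 0.108 for A_52_P652442, -0.129 to 0.112 for A_52_P652950, -0.066 to 0.052 for Rorb A_52_P662179 and -0.102 to 0.068 for A_52_P74320. The Per3 4/4 values ran from -0.371 to 0.128 for Nr1d1 A_51_P223776, -0.243 to 0.160 for A_52_P130952 and -0.104 to 0.341 for Rora A_52_P652950.

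Nr1d1 and Nr1d2 correlated at -0.500 with slide means removed, 0.162 in run 1, -0.465 with base composition classes, -0.204 without the dim arrays and -0.469 without the 2 farthest arrays. Nr1d1 and Rora, 0.284 in the main setting, passed at 0.616 with slide means removed, at 0.843 in run 1 and at 0.621 without the 2 farthest arrays. Nr1d1 and Rorb, 0.031, gave -0.002 with normexp, -0.005 with quantile normalization, -0.039 in run 2, -0.371 with the thalamus markers and 0.414 without the 2 farthest arrays. Nr1d2 and Rora gave -0.190 with slide means removed, and with the thalamus markers Nr1d2 and Rorb gave 0.604 and Rora and Rorb 0.255. Pairs with listed genes that passed, 40 in the main setting, were 37 with slide means removed, 3 in run 1, 24 with base composition classes, 10 without the dim arrays, 22 without the 2 farthest arrays and 52 with the thalamus markers. With slide means removed 27 of the 40 passed again, and 8 of the 17 of Nr1d2. With the thalamus markers 0 of the 4 Rora and 0 of the 2 Rorb pairs passed again (Hmox1 -0.298 and -0.382). In run 1 the sign turned for Nr1d1 with Gps2 (-0.190), Gsk3a (-0.233), Urod (0.382) and Fech (0.113). It also turned for Nr1d2 with Gsk3a (0.021), Bhlhe41 (0.552) and Alad (0.105, and 0.133 with base composition classes), and for Hmox1 with Rora (0.081) and Rorb (0.335). The cause of these shifts was not tested.

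The replicate numbers of run 1 did not pair the mice: deviations of the 7 same-numbered pairs correlated at -0.285 to 0.399. With the number as a replicate block 0 probes passed in Per3 5/5 (3465 unadjusted). Per3 4/4 and its WT mice share 1 number, so no paired analysis was possible because a block needs more. In run 1 the authors' table held 13 of 14 arrays under another replicate number of the same genotype, found by matching values, which leaves group means as they are but not values by mouse. Each group lies in 1 run, so the knock-in lines differ in run as well. The arrays' signal over background limits Rorb A_51_P388490, and the spread of run 2, pooled into the fit of both runs, widens the Per3 5/5 intervals of all 10 probes but Rorb A_51_P388490: standard errors of the 10 probes were 0.14 to 0.382 there and 0.067 to 0.238 with run 1 alone. By the methods' t-test 1 of the 10 probes, Nr1d2 in Per3 5/5, stood under an unadjusted p of 0.05 (p = 0.0246, adjusted p = 0.475).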
